A study of Mus musculus with 6 samples.

Results

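Immediate early genes were examined across 3 pairs of WT and DUSP4-/- mice whose splenic T cells were profiled on arrays. The list held 38 genes, and 37 of them had a probe set naming that gene alone, out of 22180 such genes on the array. Where a gene had several probe sets, the one with the highest mean over the 6 arrays stood for it. Fosl1 was not measured alone, as its probe set also names Ccdc85b. The members were 9 AP-1 and related basic leucine zipper genes, 4 EGR genes, 3 NR4A genes, 5 genes of RNA decay and growth restraint, 6 KLF and other transcription factor genes and 10 genes of signaling feedback, stress and the cell surface.

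The WT mice were C57Bl/6 and the DUSP4-/- mice were homozygous for a knockout allele of the phosphatase DUSP4, on a C57Bl/6 background. All were 6 to 8 weeks old, and total RNA was taken from freshly sorted cells that were neither cultured nor treated. The cells had been isolated by MACS, which sorts cells with antibody-coated magnetic beads. Each genotype had 3 samples, numbered 1 to 3, each on 1 Affymetrix Mouse Gene 2.0 ST array, and the WT and DUSP4-/- samples with the same number are called a pair here. The labels do not say what a shared number stands for, nor whether a sample came from a single mouse, and samples are called mice below for short.

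Immediate early genes are transcribed within minutes of a stimulus without new protein synthesis, from factors such as SRF and CREB that are already bound or waiting in the cell. In T cells the antigen receptor reaches them through calcium and through MAP kinases, among them ERK and JNK, which DUSP4 can dephosphorylate. The AP-1, EGR and NR4A genes encode transcription factors that set the next wave of genes, while other members shorten the response by destroying mRNA or by damping signaling.

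Values are log2 expression values made by the authors with RMA, so a difference of 1 is a doubling. The median over all probe sets was 4.99 to 5.07 in the 6 arrays, and 36 of the 37 members had a mean above the median probe set, the exception being Egr4. Dusp4, the targeted gene, read 6.33, 7.61 and 8.13 in WT mice 1, 2 and 3 and 5.10, 6.18 and 6.78 in DUSP4-/- mice 1, 2 and 3. It was lower in the DUSP4-/- mouse of each pair, with differences of -1.23, -1.44 and -1.35, but the genotypes overlapped. The position of its probes relative to the deletion is unknown here. Xist, which coats the inactive X chromosome of females, had pair means of 10.10, 3.64 and 3.87, so pair 1 reads as female and the others as male. The labels give no sex, and sex, litter, sorting and day cannot be told apart between pairs. The T cell genes Cd3e, Cd4 and Cd8a read 11.49 to 11.78, 10.82 to 11.10 and 10.32 to 10.79.

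The immediate early genes differed between mouse pairs much more than between genotypes. In both genotypes most members, among them the NR4A genes, Fosl2, Fosb, Atf3, Klf4 and Cd69, were lowest in mouse 1. Replicate number was tested with limma's moderated F test, adjusted over all 23521 probe sets naming 1 gene, in a fit that also held genotype. It passed an adjusted p of 0.05 for 19 of 37 members, against 2.45% of all genes. Both arrays of pair 1 lay below the other 4 arrays for 27 members, against 16.1% of all genes, and above them for 2, against 17.7%. The 3 numbers came in the same order in both genotypes for 23 members, against 32% of all genes.

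The range of the 3 pair means had a median of 1.03 over the members, a fold of 2.04, and of 0.27 over all genes. It was 1 or more for 19 members, against 2.16% of all genes. Among 11424 genes brighter than the median probe set and ordered by this range, 14 of the 36 members stood in the first 114, which are the first percent, and 9 in the first 50. The sum of squares of each gene over the 6 arrays was also divided into its parts. At the median member, 96.5% lay between replicate numbers and 0.476% between genotypes, beside medians of 56.3% and 8.13% over all genes.

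The contrasts showed which pair stood apart. Pair 2 was higher than pair 1 for 17 members (adjusted p under 0.05 from limma), against 0.803% of all genes, and lower for none, against 0.379%. Pair 3 was higher than pair 1 for 24 members, against 3.31%, and lower for 1, Egr3, against 3.36%. All 17 genes called in pair 2 were among those called in pair 3, but both contrasts subtract the same pair 1 means, so the 2 sets of calls are not independent. The median difference was 0.82 for pair 2 and 0.97 for pair 3 over the members, and -0.00 and 0.01 over all genes. Between pairs 3 and 2 limma called 0 members and 0% of all genes, while 15 members, against 10.7% of all genes, had an unadjusted p under 0.05, 13 of them higher in pair 3. A pair is 1 array of each genotype, so these tests compare particular mice and sorts. Leaving out 1 array leaves 1 array to stand for its pair. In such fits fewer members, and fewer of all genes, passed the F test and the contrasts with pair 1. Those counts are given below with the dependence on processing. The median SD of the pair means over the members was 0.528 to 0.643 with any 1 array left out, and 0.579 with all.

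**Figure D1:**
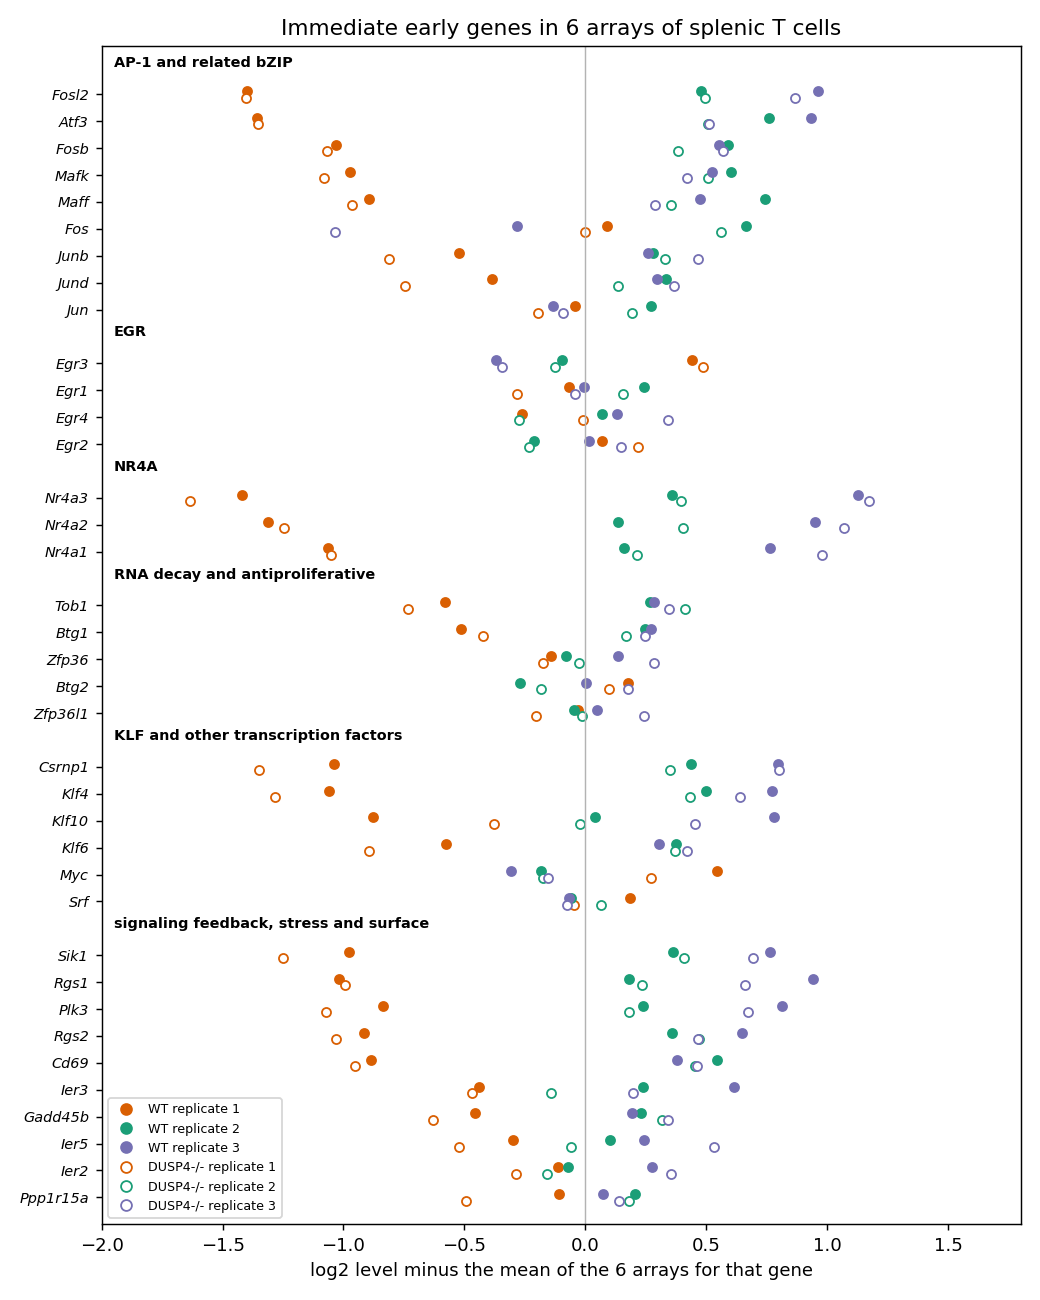
Log2 level of each of the 37 immediate early genes in each of the 6 arrays, drawn on the horizontal axis as the difference from that gene's mean over the arrays, with genes in rows by role, 1 color for each replicate number, filled circles for WT and open circles for DUSP4-/- mice. The circles of WT mouse 1 and DUSP4-/- mouse 1 lie below 0 for 31 and 33 of the 37 genes.

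Promoter sequence was looked at because many members moved together between pairs. Windows from 250 bases before to 50 bases after the annotated start were taken from RefSeq on GRCm38.p6, which held 29 of the 38 genes and 27025 genes in all. CRE core letters (TGACG, on either strand), part of the full CRE that CREB binds, were found in 18 of the 29 windows, or 62.1%, and in 20.9% of all windows. EGR site letters (GCGNGGGCG, either strand) were found in 11, or 37.9%, and in 5.53% of all windows. TATA box letters (TATAAA, on the gene's strand) were in 7, or 24.1%, against 8.88% of all windows. The full CRE (TGACGTCA), which contains the core on both strands, was in 2 windows (6.9% against 1.85%), the CArG box that SRF binds in 2 (6.9% against 1.59%) and the AP-1 site (TGANTCA) in 1 (3.4% against 7.92%). None of the 29 held the NR4A site AAAGGTCA (1.46% of all windows) or the kappa B site (1.63%), both read on either strand. Windows were not matched for base composition, and a match describes letters, not binding. Sequence farther than 250 bases before the start was not searched, so a window without a match does not show that the gene lacks the site.

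The 6 windows printed here are those of members described below, read 5′ to 3′ on the gene's strand with the matches in capitals. Fosl2, Nr4a3, Tob1, Klf4 and Plk3 were each called higher in pairs 2 and 3 than in pair 1, and Fos, which was not called, followed another order.
Nr4a3 (chr4:48045055-48045354, plus strand): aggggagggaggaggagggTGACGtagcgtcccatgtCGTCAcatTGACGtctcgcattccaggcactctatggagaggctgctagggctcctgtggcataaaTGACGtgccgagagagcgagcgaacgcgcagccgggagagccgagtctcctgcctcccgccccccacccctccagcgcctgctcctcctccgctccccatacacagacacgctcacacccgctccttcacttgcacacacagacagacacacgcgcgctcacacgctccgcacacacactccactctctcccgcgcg
Fosl2 (chr5:32136222-32136521, plus strand): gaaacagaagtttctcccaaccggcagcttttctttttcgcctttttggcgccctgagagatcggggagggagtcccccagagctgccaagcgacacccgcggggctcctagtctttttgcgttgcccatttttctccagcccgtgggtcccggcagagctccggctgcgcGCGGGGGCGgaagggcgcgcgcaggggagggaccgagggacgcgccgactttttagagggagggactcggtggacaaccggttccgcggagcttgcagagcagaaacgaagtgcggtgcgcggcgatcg
Klf4 (chr4:55532426-55532725, minus strand): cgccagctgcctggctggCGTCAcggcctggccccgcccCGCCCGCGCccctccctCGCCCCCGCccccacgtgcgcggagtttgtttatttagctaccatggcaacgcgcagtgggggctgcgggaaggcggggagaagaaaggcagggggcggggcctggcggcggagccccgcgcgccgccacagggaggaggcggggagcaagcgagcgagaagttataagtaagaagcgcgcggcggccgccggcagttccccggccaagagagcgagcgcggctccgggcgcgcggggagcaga
Plk3 (chr4:117133914-117134213, minus strand): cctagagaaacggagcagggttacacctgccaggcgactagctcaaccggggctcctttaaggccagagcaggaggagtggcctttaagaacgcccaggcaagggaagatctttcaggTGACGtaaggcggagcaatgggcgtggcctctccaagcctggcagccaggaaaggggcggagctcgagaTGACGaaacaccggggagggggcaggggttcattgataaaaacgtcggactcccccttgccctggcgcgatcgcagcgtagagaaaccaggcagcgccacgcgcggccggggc
Tob1 (chr11:94211204-94211503, plus strand): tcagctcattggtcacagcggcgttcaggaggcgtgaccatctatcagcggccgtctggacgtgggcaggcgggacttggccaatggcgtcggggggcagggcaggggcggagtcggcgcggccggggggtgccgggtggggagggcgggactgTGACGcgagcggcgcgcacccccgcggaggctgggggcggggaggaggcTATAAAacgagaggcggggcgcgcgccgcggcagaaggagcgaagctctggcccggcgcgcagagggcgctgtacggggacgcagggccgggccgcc
Fos (chr12:85473640-85473939, plus strand): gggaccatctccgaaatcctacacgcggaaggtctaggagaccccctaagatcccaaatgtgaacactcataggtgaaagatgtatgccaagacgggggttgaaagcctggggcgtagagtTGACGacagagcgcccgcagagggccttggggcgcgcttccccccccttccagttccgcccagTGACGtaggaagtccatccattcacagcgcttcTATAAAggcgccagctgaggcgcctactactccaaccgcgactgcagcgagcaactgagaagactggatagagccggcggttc
The Nr4a3 window holds 4 CRE cores, which begin at positions -231, -213, -205 and -147 relative to the start. The Fosl2 window holds no CRE core but 1 EGR site, the Klf4 window 1 CRE core and 2 EGR sites, and the Plk3 window 2 CRE cores. The Tob1 window holds 1 CRE core and a TATA box, and that of Fos 2 CRE cores and a TATA box. Whether these matches go with the order of the pairs was not tested.

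AP-1 is a dimer of Fos and Jun proteins, and 6 of the 9 measured AP-1 and related genes passed the F test for replicate number. Of the 9, 5 were called higher in pair 2 and 7 in pair 3 than in pair 1, and none lower. Fosl2, which encodes the Fos family protein Fra-2, read 6.87, 8.75 and 9.23 in WT mice 1, 2 and 3 and 6.86, 8.76 and 9.14 in DUSP4-/- mice. The 2 genotypes nearly coincided within each pair, and both mice 1 lay far below the other 4. Its level in pair 3 was 4.98-fold that in pair 1 (95% confidence interval 4.10 to 6.06, adjusted p = 0.00508 from limma). Fosb, another Fos family gene, read 8.53, 10.16 and 10.12 in WT and 8.49, 9.95 and 10.13 in DUSP4-/- mice, a pair 3 level 3.05-fold that of pair 1 (2.48 to 3.76, adjusted p = 0.00851). Mice 2 and 3 were alike for Fosb.

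Atf3 encodes a stress-induced factor of the ATF/CREB family. It read 5.98, 8.10 and 8.28 in WT and 5.99, 7.85 and 7.85 in DUSP4-/- mice, so that pair 3 was 4.23-fold pair 1 (3.30 to 5.41, adjusted p = 0.00752). The small Maf genes Maff and Mafk encode bZIP proteins without an activation domain. Maff read 5.70, 7.34 and 7.07 in WT and 5.63, 6.95 and 6.88 in DUSP4-/- mice, with pair 2 at 2.79-fold pair 1 (adjusted p = 0.0188). Mafk read 7.19, 8.77 and 8.69 in WT and 7.09, 8.67 and 8.58 in DUSP4-/- mice, with pair 2 at 2.99-fold pair 1 (adjusted p = 0.0143). Both were lowest in mouse 1 of each genotype and slightly higher in mouse 2 than in mouse 3.

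The Jun family moved less. Junb read 9.72, 10.53 and 10.51 in WT and 9.44, 10.58 and 10.71 in DUSP4-/- mice, and pair 3 was 2.04-fold pair 1 (adjusted p = 0.0259), while pair 2 against pair 1 missed the threshold (adjusted p = 0.0582). Jund read 9.88, 10.60 and 10.56 in WT and 9.52, 10.40 and 10.64 in DUSP4-/- mice, with pair 3 at 1.86-fold pair 1 (adjusted p = 0.0300) and pair 2 not called (0.0702). Mouse 1 was lowest in both genotypes for both genes. Jun itself, which encodes c-Jun, read 10.51, 10.82 and 10.42 in WT and 10.36, 10.74 and 10.46 in DUSP4-/- mice, and no contrast was called. Its difference between pairs 3 and 1 was 0.01, with a 95% confidence interval of the fold of 0.819 to 1.23, which became -0.051 once array medians were subtracted.

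Fos, the partner of Jun in classical AP-1, followed another order. It read 9.22, 9.80 and 8.85 in WT and 9.13, 9.69 and 8.10 in DUSP4-/- mice, so that mouse 2 was highest and mouse 3 lowest in both genotypes. Pair 3 lay 1.27 below pair 2, with an unadjusted p = 0.000815 and an adjusted p = 0.337 from limma, and the F test gave an adjusted p = 0.0611. Fos was the member with the largest genotype difference, -0.32, of which pair 3 gave -0.76 and pairs 1 and 2 -0.09 and -0.10.

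**Figure D2:**
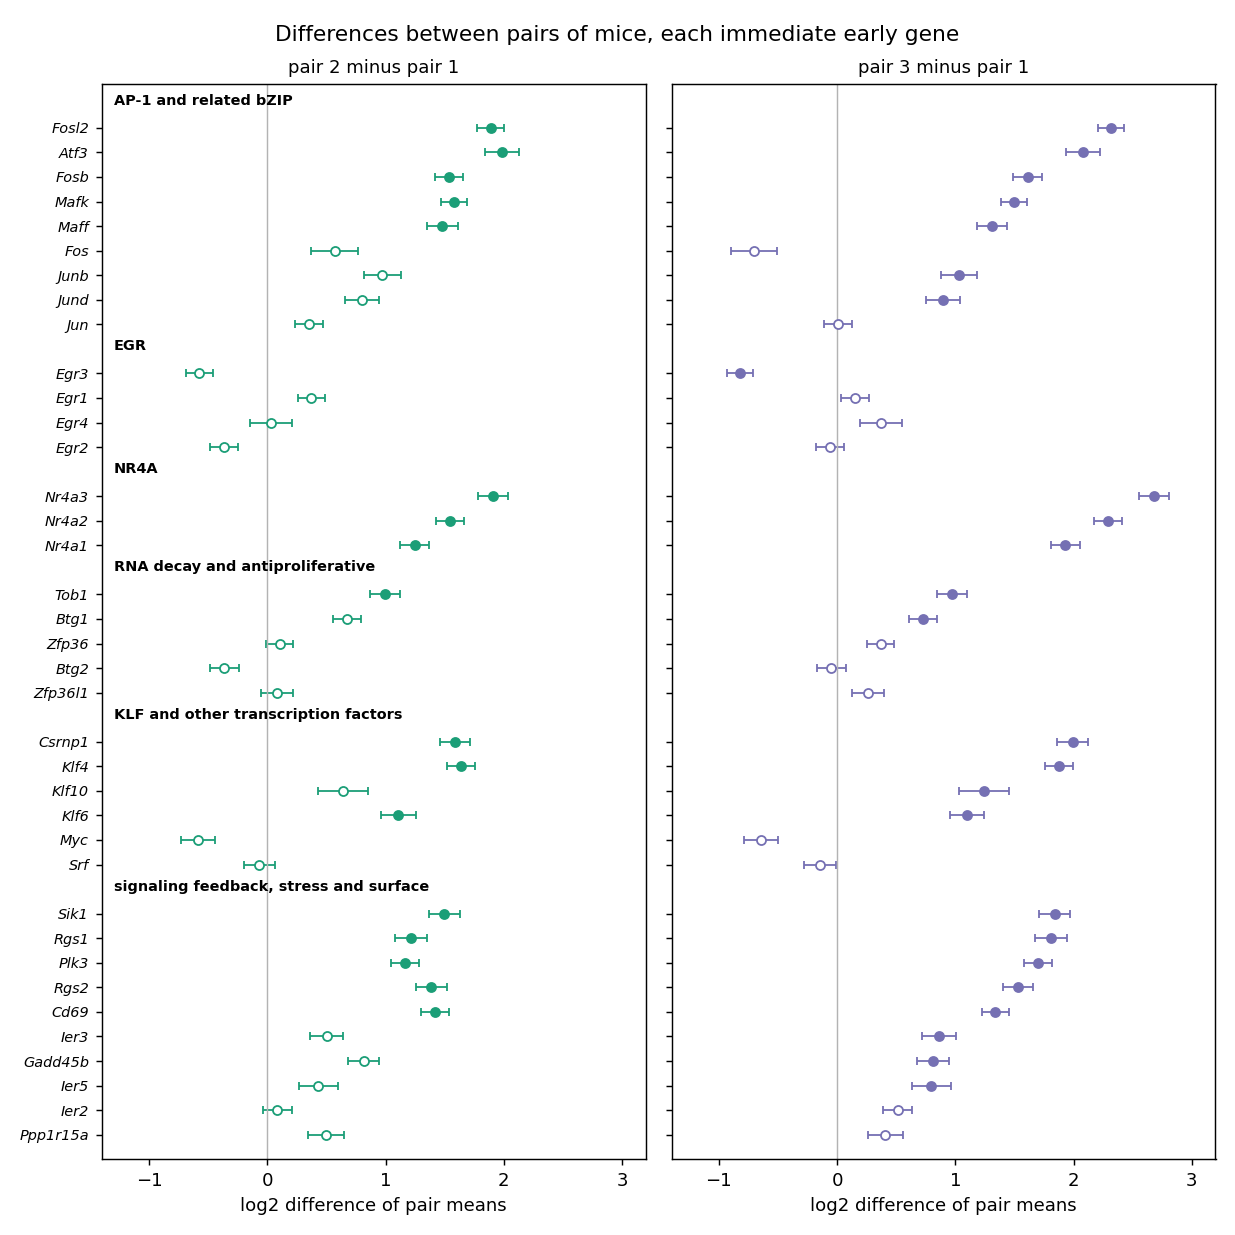
Difference in log2 level between pair 2 and pair 1 and between pair 3 and pair 1 for each of the 37 immediate early genes, as points with bars of 1 standard error on either side from the fit, filled where the adjusted p from limma was under 0.05. The points of Nr4a3 reach 1.90 and 2.68, whereas those of Egr3 and Myc lie below 0 in both contrasts.

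The NR4A genes encode nuclear receptors with no known endogenous ligand, whose abundance rather than a ligand sets their activity, and Nr4a1 is widely used as a reporter of antigen receptor signaling. All 3 passed the F test and were called higher in pairs 2 and 3 than in pair 1. Nr4a3 read 7.79, 9.57 and 10.33 in WT and 7.57, 9.60 and 10.38 in DUSP4-/- mice. Its pair 3 level was 6.40-fold that in pair 1 (5.14 to 7.97, adjusted p = 0.00508), and its range of pair means ranked 6 of 11424 genes. Mouse 1 was lowest, mouse 2 in between and mouse 3 highest in both genotypes.

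Nr4a2 read 6.60, 8.05 and 8.87 in WT and 6.67, 8.32 and 8.98 in DUSP4-/- mice, with pair 3 at 4.89-fold pair 1 (3.98 to 6.00, adjusted p = 0.00508). Nr4a1 read 9.08, 10.30 and 10.90 in WT and 9.09, 10.36 and 11.12 in DUSP4-/- mice, with pair 3 at 3.81-fold pair 1 (3.10 to 4.68, adjusted p = 0.00727). The order of the mice was the same as for Nr4a3 in both genotypes. The NR4A genes also had the smallest unadjusted p among members higher in pair 3 than in pair 2, with differences of 0.68, 0.74 and 0.77 for Nr4a1, Nr4a2 and Nr4a3 (unadjusted p of 0.00155, 0.00103 and 0.00115), but the adjusted p was 0.337 for each.

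Of the 4 EGR genes, zinc finger factors induced through ERK, none was called higher in pair 2 or 3 than in pair 1, and 1 was called lower. Whether they differed from the other families was not tested. Egr3, which with Egr2 restrains activated T cells in the mouse, read 6.99, 6.46 and 6.18 in WT and 7.04, 6.43 and 6.21 in DUSP4-/- mice. Mouse 1 was highest in both genotypes, and pair 3 was 0.566-fold pair 1 (0.467 to 0.687, adjusted p = 0.0226). It also passed the F test (adjusted p = 0.0490). Egr2 read 7.27, 6.99 and 7.21 in WT and 7.42, 6.97 and 7.35 in DUSP4-/- mice, lowest in mouse 2 of each genotype, and its pair 2 level was 0.775-fold that of pair 1 (adjusted p = 0.190).

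Egr1, the founding member, read 7.60, 7.91 and 7.66 in WT and 7.39, 7.82 and 7.62 in DUSP4-/- mice. Mouse 1 was lowest and mouse 2 highest in both, and the fold between pairs 2 and 1 was 1.30 (adjusted p = 0.184). That difference passed the threshold when only probe sets above the median were tested (adjusted p = 0.0463). It also passed with an intensity trend and robust settings in limma (adjusted p = 0.0214). Under these 2 settings Egr2 (adjusted p = 0.0488 and 0.0393) and Egr3 (0.0130 and 0.0068) passed as lower in pair 2 than in pair 1. Fos (0.0290 and 0.0290) and Myc (0.0134 and 0.00047) passed as lower in pair 3 than in pair 1. In total 10 and 14 members gained a call in pair 2, and 4 and 6 in pair 3, some of them higher and some lower. For Egr1 the fold of pair 3 over pair 1 had an interval of 0.906 to 1.36. Egr4 read 4.37, 4.70 and 4.76 in WT and 4.63, 4.36 and 4.98 in DUSP4-/- mice, below the median probe set, and the mice came in no common order.

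Proteins of RNA decay and growth restraint act after transcription, Zfp36 (tristetraprolin) and Zfp36l1 by binding AU-rich mRNA and the BTG/TOB proteins by bringing in a deadenylase. Of these 5 genes, 1 passed the F test, 1 was called higher in pair 2 than in pair 1 and 2 in pair 3. Tob1, which restrains T cell proliferation, read 8.15, 8.99 and 9.01 in WT and 7.99, 9.14 and 9.07 in DUSP4-/- mice, with pair 2 at 2.00-fold pair 1 (adjusted p = 0.0421) and pair 3 at 1.96-fold (adjusted p = 0.0214). Btg1 read 10.45, 11.21 and 11.23 in WT and 10.54, 11.13 and 11.21 in DUSP4-/- mice, with pair 3 at 1.65-fold pair 1 (adjusted p = 0.0300). In both genes mouse 1 was lowest and mice 2 and 3 alike.

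The other 3 were not called. Btg2 read 9.41, 8.96 and 9.24 in WT and 9.33, 9.05 and 9.41 in DUSP4-/- mice, lowest in mouse 2. Zfp36 read 10.30, 10.36 and 10.58 in WT and 10.26, 10.41 and 10.72 in DUSP4-/- mice, and its pair 3 level was 1.29-fold that of pair 1 (1.05 to 1.58, adjusted p = 0.123). Zfp36l1 read 10.25, 10.23 and 10.33 in WT and 10.08, 10.27 and 10.52 in DUSP4-/- mice, a fold of 1.20 (0.949 to 1.51, adjusted p = 0.291). Its dimmer 2nd probe set had a pair 3 minus pair 1 difference of 0.58 (adjusted p = 0.0642).

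Among the KLF and other transcription factor genes, 3 of 6 passed the F test and 4 were called higher in pair 3 than in pair 1. Csrnp1, which encodes a cysteine- and serine-rich nuclear protein, read 7.36, 8.84 and 9.20 in WT and 7.05, 8.75 and 9.20 in DUSP4-/- mice, with pair 3 at 3.98-fold pair 1 (3.18 to 4.98, adjusted p = 0.00727). Klf4, a zinc finger factor that restrains T cell cycling, read 6.02, 7.58 and 7.85 in WT and 5.79, 7.51 and 7.72 in DUSP4-/- mice, with pair 3 at 3.67-fold pair 1 (3.01 to 4.48, adjusted p = 0.00727). Both were lowest in mouse 1 of each genotype.

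Klf6 read 10.38, 11.33 and 11.26 in WT and 10.05, 11.32 and 11.37 in DUSP4-/- mice, with pair 2 at 2.16-fold pair 1 (adjusted p = 0.0422). Klf10, which is induced by TGF-beta, read 6.30, 7.22 and 7.96 in WT and 6.80, 7.16 and 7.63 in DUSP4-/- mice, with pair 3 at 2.37-fold pair 1 (1.65 to 3.40, adjusted p = 0.0332) and the F test not passed (0.0746). Mouse 1 was lowest in both genotypes for both genes. Myc, the growth regulator, lay the other way, at 9.17, 8.44 and 8.32 in WT and 8.90, 8.45 and 8.48 in DUSP4-/- mice, highest in mouse 1 of each genotype, and its pair 3 fold of 0.642 missed the threshold (adjusted p = 0.0600). Srf, the factor that binds CArG boxes upstream of many members, read 8.15, 7.91 and 7.90 in WT and 7.92, 8.03 and 7.89 in DUSP4-/- mice, with no call and no common order.

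Of the 10 genes of signaling feedback, stress and the cell surface, 5 passed the F test, 5 were called higher in pair 2 than in pair 1 and 8 in pair 3. Cd69, an early activation marker that holds T cells in tissue, read 9.93, 11.36 and 11.20 in WT and 9.87, 11.27 and 11.28 in DUSP4-/- mice, with pair 2 at 2.67-fold pair 1 (adjusted p = 0.0161). Sik1 encodes a salt-inducible kinase that keeps CREB coactivators out of the nucleus. It read 8.76, 10.10 and 10.50 in WT and 8.49, 10.15 and 10.43 in DUSP4-/- mice, with pair 3 at 3.58-fold pair 1 (2.86 to 4.48, adjusted p = 0.00778). Plk3, a polo-like kinase of the stress response, read 6.85, 7.93 and 8.50 in WT and 6.61, 7.87 and 8.36 in DUSP4-/- mice, with pair 3 at 3.24-fold pair 1 (2.65 to 3.97, adjusted p = 0.00752). In all 3 genes the arrays of mouse 1 lay below the other 4.

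Rgs1 and Rgs2 encode GTPase activators that end G protein signaling from chemokine and other receptors. Rgs1 read 7.19, 8.39 and 9.15 in WT and 7.21, 8.44 and 8.87 in DUSP4-/- mice, with pair 3 at 3.50-fold pair 1 (2.77 to 4.42, adjusted p = 0.00851). Rgs2 read 9.15, 10.43 and 10.72 in WT and 9.04, 10.54 and 10.53 in DUSP4-/- mice, with pair 3 at 2.89-fold pair 1 (2.32 to 3.60, adjusted p = 0.0106). Both were lowest in mouse 1. The dimmer 2nd probe set of Rgs2 also differed between pairs 3 and 1, by 0.95 (adjusted p = 0.0312), as did that of Jund, by 0.96 (adjusted p = 0.0175).

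Gadd45b, a stress gene that can activate p38 signaling, read 7.70, 8.39 and 8.35 in WT and 7.53, 8.47 and 8.50 in DUSP4-/- mice (pair 3 at 1.75-fold pair 1, adjusted p = 0.0310). Ier3, which affects cell survival, read 5.50, 6.18 and 6.55 in WT and 5.47, 5.80 and 6.14 in DUSP4-/- mice (1.81-fold, adjusted p = 0.0326). Ier5, a cofactor of the heat shock factor HSF1, read 8.21, 8.61 and 8.76 in WT and 7.99, 8.45 and 9.04 in DUSP4-/- mice (1.74-fold, adjusted p = 0.0483). These genes passed only in pair 3 against pair 1, and not in the F test. Ier2 read 8.31, 8.35 and 8.70 in WT and 8.13, 8.26 and 8.77 in DUSP4-/- mice, highest in mouse 3, with a fold of 1.43 (adjusted p = 0.0678). Ppp1r15a, which encodes GADD34, the subunit that directs a phosphatase to eIF2-alpha, read 8.66, 8.97 and 8.84 in WT and 8.27, 8.95 and 8.91 in DUSP4-/- mice, with no contrast called.

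Between genotypes no member was called. With limma, 0 of 37 members and 0% of all genes passed an adjusted p of 0.05, with the replicate number as a block or without it. Dusp4, the targeted gene, did not pass either (adjusted p = 0.9999 from limma without the block). The lack of calls therefore does not show that the members were unaffected. At an unadjusted p under 0.05, 0 members passed without the block, against 2.7% of all genes, and 0 with it, against 6.19%. A one-way ANOVA also gave 0 members at an unadjusted p under 0.05, against 3.55% of all genes, and 0 after adjustment. The 3 WT and 3 DUSP4-/- arrays overlapped for every member, while 7.44% of all genes had no overlap. A wide spread between pairs makes overlap more likely and widens the error of the tests without the block. These shares therefore cannot tell a small genotype difference from a wide spread between pairs. Dusp4 overlapped too, though it was lower in the DUSP4-/- mouse of each pair. The SD of the pair means was larger than the size of the mean genotype difference for all 37 members, as it was for 64.8% of all genes.

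Within pairs the sign of the difference was mixed. The DUSP4-/- mouse was below its WT partner for 28 members in pair 1, 22 in pair 2 and 15 in pair 3, and the median differences were -0.11, -0.03 and 0.04. For 9 members the sign was the same in all 3 pairs, a share of 24.3% against 27.6% of all genes. These were Fos, Maff, Mafk, Egr1, Klf4, Ier3 and Plk3, lower in each DUSP4-/- mouse, and Nr4a1 and Nr4a2, higher in each. Over the 3 pairs 26 members had a mean below WT, or 70.3% against 44.1% of all genes, with a median difference of -0.04 beside 0.02. That median was 0.24 without DUSP4-/- mouse 1 and -0.37 without WT mouse 1, fits in which the partner stays and the difference between pairs enters. With pair 1, 2 or 3 left out whole it was -0.012, -0.055 and -0.098.

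The block narrowed what a genotype difference could be. With it the fold of DUSP4-/- over WT lay between 0.803 (Fos) and 1.11 (Nr4a2) over the members, and the 95% intervals lay between 0.610 and 1.38. The interval was 0.837 to 1.15 for Fosl2, 0.812 to 1.16 for Nr4a3, 0.834 to 1.16 for Cd69 and 0.784 to 1.09 for Egr1. The lowest p of any member was that of Ier3, with a fold of 0.826 (0.675 to 1.01, unadjusted p = 0.0597, adjusted p = 0.781 from limma), with differences of -0.03, -0.38 and -0.42 in pairs 1, 2 and 3. An interval that holds 1 does not show that the genotypes are equal.

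**Figure D3:**
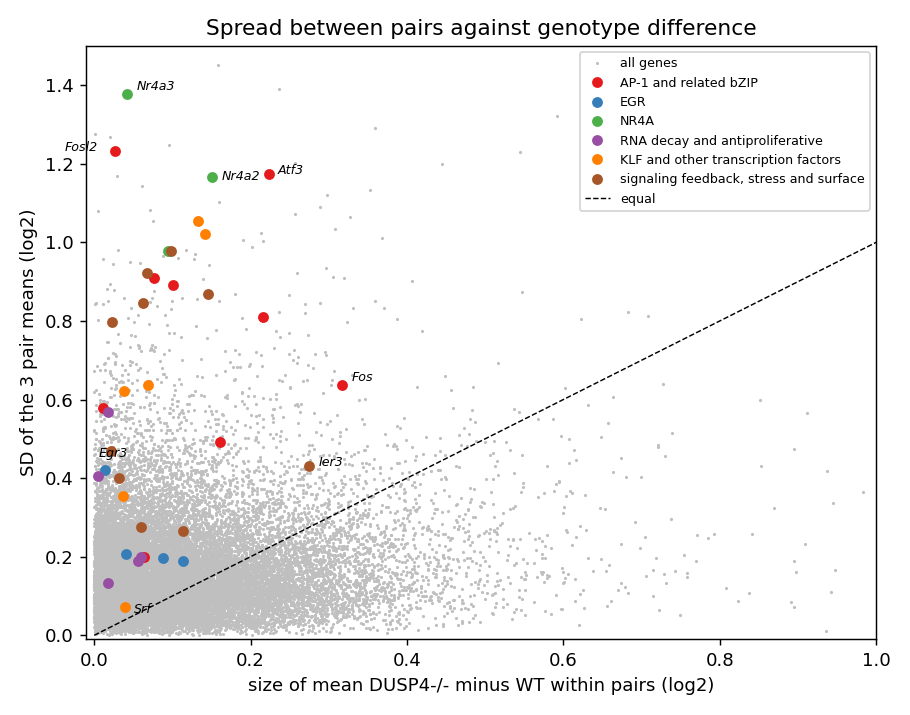
SD of the 3 pair means (vertical, log2) against the size of the mean DUSP4-/- minus WT difference (horizontal, log2) for all genes in grey and for the 37 immediate early genes colored by role, with a dashed line where both are equal. All 37 members lie above the line, up to an SD of 1.38 for Nr4a3, and 17 genes with a difference over 1 and 5 with an SD over 1.5 fall outside the axes.

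Other genes of the early response were also higher in pairs 2 and 3 where called. They were listed for their known role, but with earlier results of these data known. Of 39 such genes 37 were measured, 15 passed the F test, 11 were called higher in pair 2 and 20 in pair 3 than in pair 1, and none lower, with median differences of 0.46 and 0.71. Tnfaip3, which encodes the NF-kappaB inhibitor A20, had means of 9.25, 11.69 and 11.68 in pairs 1, 2 and 3. Dusp5, a nuclear phosphatase of ERK, had means of 8.00, 9.95 and 10.39, and Per1, a clock gene inducible by CREB, means of 8.38, 10.21 and 10.82. The MAP kinase phosphatase genes Dusp1 (9.73, 10.79 and 10.49) and Dusp6 (8.41, 9.41 and 8.91) were highest in pair 2. Dusp4 itself was called higher in pair 2 (difference 1.18, adjusted p = 0.0282) and pair 3 (1.74, adjusted p = 0.00752) than in pair 1.

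Partners of these factors were mostly not called. Of 8 partners of SRF and CREB, only Crem, which is itself inducible and also stands in the list of other early response genes, was called higher in pair 3 (difference 0.62, adjusted p = 0.0371), and the median of the list was -0.20. Of 11 measured AP-1 partners in T cells none was called, with medians of 0.09 and 0.05 in the contrasts of pairs 2 and 3 with pair 1. Among 12 measured heat shock genes, 1 was called, Bag3, higher in pair 3 (0.94, adjusted p = 0.0443). The inducible chaperone gene Hspa1a had the reverse order of means, 10.88, 9.01 and 9.06 in pairs 1, 2 and 3, without passing the test (adjusted p = 0.0942 and 0.0561).

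Markers of other cells also differed between pairs. Of 9 measured B cell markers of 10, 4 were called lower in pair 2 than in pair 1 and 4 in pair 3, with medians of -0.92 and -0.58, and the log2 of their summed level was 10.23 and 10.28 in the arrays of pair 1 and 9.19 to 9.66 in the other 4. Of 19 measured myeloid markers of 20, none was called, and their summed level was 11.29 and 11.33 in pair 1 and 11.09 to 11.51 in the others. Of 11 measured T cell markers of 12, Cd28 was called higher and Il7r lower in pair 3. The medians were -0.21 in pair 2 and -0.14 in pair 3, and the summed level was 14.21 and 14.27 in pair 1 and 13.99 to 14.08 in the others. Of 7 measured dendritic cell markers of 8, none was called in pair 2, while in pair 3 Xcr1 (-1.04) and Itgax (-0.73) were called lower and Bst2 (1.00), which interferon also induces, higher, with medians of -0.16 and -0.20 and a summed level of 9.44 to 9.91 over the 6 arrays. Of the 7 plasma cell markers Xbp1 was called higher in pair 3, by 1.15, and the medians were -0.56 and -0.11 with a summed level of 10.14 to 11.25. None of 6 measured NK cell markers of 8 was called, with medians of -0.47 and -0.31 and a summed level of 8.66 in both arrays of pair 1 and 8.01 to 8.46 in the others. No platelet or erythroid marker was called among 5 and 2 measured. RMA values have no true zero, and 1 of the B cell markers, 5 of the myeloid, 1 of the dendritic, 1 of the plasma cell and 4 of the NK cell markers lay below the median probe set. The part of these cells and of sex in the levels of the immediate early genes was not tested, and in bulk RNA fewer cells of a type and less RNA per cell cannot be told apart.

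**Figure D4:**
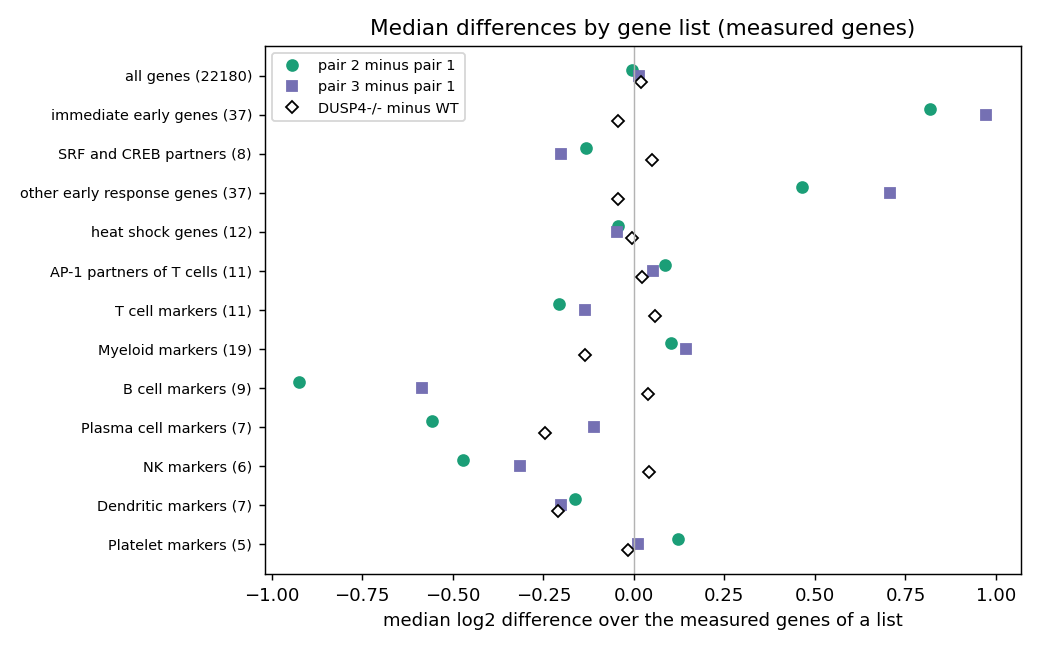
Median log2 difference over the measured genes of a list (number in parentheses) for pair 2 minus pair 1 (circles), pair 3 minus pair 1 (squares) and DUSP4-/- minus WT (diamonds), without error bars. The immediate early genes stand at 0.82 and 0.97 between pairs and -0.04 between genotypes, all genes at -0.00, 0.01 and 0.02, and the B cell markers at -0.92 and -0.58 between pairs.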

How the data were processed

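Total RNA of splenic T cells from 3 WT and 3 DUSP4-/- mice was hybridized to Affymetrix Mouse Gene 2.0 ST arrays. The authors deposited log2 values made with RMA in Affymetrix Expression Console (version and genome build not given in the sources used here), a method that removes background, applies quantile normalization and summarizes probe sets. Of 41345 probe sets, 23521 name 1 gene in the platform annotation and were tested, and 1820 naming several and 16004 naming none were left out. Linear models were run in R 4.3.3 with limma 3.58.1 (lmFit, eBayes). Genotype was fitted without a block, and contrasts of pairs in a model of genotype and replicate number. Tests were two-sided, with Benjamini-Hochberg adjustment over the tested probe sets and a threshold of 0.05. The procedure was tested on simulated data. The 6 arrays limit the precision of every value. No label says more of how the samples of a genotype were taken than their number. Without the block, p-values for genotype measure the spread between these samples. In the fit with replicate number, p-values and intervals measure how far the DUSP4-/- minus WT difference varied between pairs, moderated over probe sets. Intervals of a pair contrast thus describe these pairs and not mice in general.

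The members, the related lists and the tests were chosen with earlier results of these data known, and the motif search and the 6 printed windows were chosen after the values were seen. All measured members are named, and of other genes the 10 with the largest range of pair means. Further genes of the related lists, many of them called, are also named as examples. Samples with the same number deviated together. Over 22143 genes without the members, the deviations of same-numbered arrays from their genotype means correlated at 0.304 to 0.571, and those of other numbers at -0.430 to 0.099, where genes are not independent replicates. The study's legend speaks of pairs. Alternatives were the replicate block, each array left out, only probe sets above the median, an intensity trend with robust settings, array weights, quantile normalization again, subtracted array medians, averaged probe sets of a gene, one-way ANOVA and a threshold of 0.1. Leaving out both arrays of a pair, and the pair contrast of each member under these settings, were added after seeing the data.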

Additional observations from a re-analysis of the deposited data

How the results depend on the processing

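Genotype calls among the members were 0 under all alternatives, including the replicate block and leaving out both arrays of a pair. The lowest adjusted p from limma of any member was 0.781, with the block, which changed no call. With 1 array left out its pair is read from 1 array only. Fewer of all genes, not only of the members, then passed the F test and the contrasts with pair 1. The counts without 1 array that follow therefore do not show that a member's call rests on that array. The size of the differences between pairs changed less, as the median SD of the pair means over the members was 0.528 to 0.643, against 0.579 with all arrays. The F test called 0 to 15 of 37 members without 1 array, pair 2 minus pair 1 called 0 to 15, and pair 3 minus pair 1 called 0 to 20, against 19, 17 and 25 with all arrays. With either array of pair 1 left out all 3 counts were 0, pair 2 minus pair 1 also gave 0 without either array of pair 2, and pair 3 minus pair 1 gave 12 without WT replicate 3 and 13 without DUSP4-/- replicate 3. More genes of every kind passed with an intensity trend and robust settings, where the F test called 33 members and 17.7% of all genes, pair 2 minus pair 1 31 and 12.1%, and pair 3 minus pair 2 11 and 1.61%. Over probe sets above the median, pair 2 minus pair 1 called 27 of 36 members and 17.6% of genes. The cause was not tested.

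The median genotype difference of -0.04 moved to between -0.37 and 0.24 when 1 array was left out and its partner kept, and was -0.012, -0.055 and -0.098 with pair 1, 2 or 3 left out whole. Genotype differences turned sign when 1 array was left out for 34 members, all but Egr1, Egr2 and Ier3. Among AP-1 genes they ran from -0.68 to 0.12 for Fos, -0.61 to 0.44 for Fosb, -0.73 to 0.67 for Fosl2, -0.17 to 0.057 for Jun, -0.28 to 0.39 for Junb, -0.40 to 0.17 for Jund, -0.96 to 0.40 for Atf3, -0.72 to 0.21 for Maff and -0.61 to 0.41 for Mafk. For EGR and NR4A genes they ran from -0.23 to 0.24 for Egr3, -0.12 to 0.19 for Egr4, -0.41 to 0.65 for Nr4a1, -0.47 to 0.81 for Nr4a2 and -0.76 to 0.76 for Nr4a3. For RNA decay genes the ranges were -0.073 to 0.16 for Zfp36, -0.10 to 0.12 for Zfp36l1, -0.26 to 0.21 for Btg1, -0.0605 to 0.17 for Btg2 and -0.27 to 0.39 for Tob1. Other transcription factors ran from -0.71 to 0.46 for Klf4, -0.37 to 0.36 for Klf6, -0.39 to 0.44 for Klf10, -0.20 to 0.23 for Myc, -0.084 to 0.043 for Srf and -0.68 to 0.51 for Csrnp1. The rest ran from -0.25 to 0.068 for Ier2, -0.31 to 0.22 for Ier5, -0.47 to 0.45 for Cd69, -0.59 to 0.41 for Rgs1, -0.54 to 0.44 for Rgs2, -0.20 to 0.34 for Gadd45b, -0.60 to 0.35 for Plk3, -0.61 to 0.50 for Sik1 and -0.23 to 0.10 for Ppp1r15a. Other settings turned the sign for Junb (0.0071 with array weights, 0.012 with quantile normalization again), Jund (0.019 with the mean over probe sets), Rgs2 (0.041, likewise), Egr3 (-0.00082 with subtracted medians), Btg1 (0.014 with quantile normalization) and, with array weights, Egr4 (-0.15), Klf10 (-0.046), Myc (0.012) and Srf (0.046).

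Of the pair contrasts, none of those called turned sign. With 1 array left out, pair 2 minus pair 1 ran from -0.26 to 0.32 for Egr4, -0.059 to 0.23 for Zfp36l1, -0.21 to 0.079 for Srf and -0.0014 to 0.17 for Ier2, and pair 3 minus pair 1 from -0.074 to 0.086 for Jun, -0.15 to 0.057 for Btg2 and -0.29 to 0.0035 for Srf. Egr4 in pair 2 turned to -0.016 with quantile normalization and -0.000020 with subtracted medians, and Jun in pair 3 to -0.051 with subtracted medians. Low signal limits Egr4, the only member below the median probe set.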

Other observations

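The genes outside the list with the largest range of pair means among those brighter than the median probe set were led by sex-linked ones, Xist with means of 10.10, 3.64 and 3.87 in pairs 1, 2 and 3, Eif2s3y (3.55, 9.11 and 8.73), Uty (3.22, 7.98 and 8.00) and Kdm5d (2.86, 7.53 and 7.08). The others among the first 10 were Zbtb10, which encodes a zinc finger protein (5.79, 8.72 and 9.003), Vps37b of the endosomal sorting machinery (8.58, 10.97 and 11.20), Gch1, which makes the cofactor tetrahydrobiopterin (5.71, 7.98 and 8.23), Tnfaip3 (9.25, 11.69 and 11.68), Per1 (8.38, 10.21 and 10.82) and Dusp5 (8.00, 9.95 and 10.39). All 6 of these were lowest in pair 1, like most immediate early genes, with mean genotype differences of 0.00, -0.16, -0.24, -0.06, -0.02 and 0.00. From the list of other early response genes, 3 were picked after their values were seen. Nfkbia, an inhibitor of NF-kappaB, had means of 9.73, 11.16 and 11.26 (adjusted p = 0.0140 from limma for pair 3 minus pair 1), Rel, a subunit of it, 9.38, 10.44 and 10.80 (0.00975), and Bhlhe40, a T cell transcription factor, 7.60, 9.19 and 9.64 (0.0106).

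Tnf, which encodes the cytokine TNF, differed between numbers in another order, at 8.28, 7.79 and 8.95 (adjusted p of the F test = 0.0449). Among T cell genes, Il7r, the IL-7 receptor chain of resting T cells, had means of 11.24, 10.63 and 10.34 and was lower in pair 3 than in pair 1 (adjusted p = 0.0185), while the costimulatory receptor gene Cd28 had means of 9.15, 9.84 and 9.91 and was higher (adjusted p = 0.0250).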
